A study of Caenorhabditis elegans with 12 samples.

Results

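The anaphase-promoting complex (APC/C), its activator FZY-1 and its substrate securin (IFY-1) were followed through expression arrays of *lin-54* mutant *Caenorhabditis elegans*. The genes were taken by symbol: *mat-1*, *mat-2*, *mat-3*, *emb-27*, *emb-30*, *apc-2*, *apc-10* and *apc-11* for the complex, with *fzy-1* and *ify-1*. All 10 were on the array, with 15 probe sets, of 17675 genes and 21541 probe sets in all. Probe sets of different genes, and of the same gene, are not on a common scale, so that levels were compared only between arrays. Of the 10 genes, 4 lie on chromosome II (*mat-2*, *emb-27*, *fzy-1* and *ify-1*), 4 on chromosome III (*emb-30*, *mat-3*, *apc-2* and *apc-11*), 1 on chromosome V (*apc-10*) and 1 on chromosome I (*mat-1*).

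The groups were *lin-54(n2990)* embryos and wild-type N2 embryos, from animals kept at 25°C, and germlines dissected 24 hours after the L4 stage from *lin-54(n3423)* and wild-type N2 adults kept at 20°C, with 3 arrays in each group. Both mutants are in the N2 background. *lin-54* encodes a DNA-binding subunit of the DRM complex, a repressor and activator of transcription. *n2990* is a missense allele that changes the DNA-binding domain, and *n3423* is a deletion that removes most of the gene. The embryos were whole and collected from young adults, and the germlines ran from the mitotic tip to late pachytene. Tissue therefore differed together with allele, temperature and labelling kit, and the germline RNA was amplified. The methods call the wild-type arrays of each tissue biological replicates, while the labels only number the samples, and the p-values measure the spread between these samples.

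The APC/C is a ubiquitin ligase of many subunits that starts anaphase. Bound by the activator FZY-1 (the worm CDC20), it marks securin and B-type cyclins for destruction. Separase is then free to cut cohesin, and chromosomes or chromatids part. The spindle checkpoint holds FZY-1 back until all chromosomes are attached. In *C. elegans*, loss of APC/C subunits arrests fertilized eggs at metaphase of the first meiotic division, which gave the *mat* genes (metaphase to anaphase transition defective) their name, and mothers load these transcripts into the oocyte.

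A detection call (present, marginal or absent) accompanied each value. On the embryo arrays 10826 to 11818 probe sets were called present in the mutant and 11737 to 11985 in wild-type. On the germline arrays 5954 to 8001 were present in the mutant and 6347 to 8209 in wild-type. Mutant embryo replicate 2 stood apart, with the fewest present calls of the 6 embryo arrays and correlations of 0.928 to 0.944 with the wild-type arrays, against 0.972 to 0.989 for the other mutant arrays. In germlines the arrays numbered 1 of both genotypes stood apart, with correlations of 0.910 to 0.935 with the other germline arrays and of 0.975 with each other. The probe set of the mutated gene *lin-54* read 8.88, 8.14 and 8.18 on the log2 scale in *lin-54(n3423)* germlines, absent on all 3, against 9.68, 11.01 and 11.02 in wild-type germlines, at least 4.51-fold lower in the mutant (limma, adjusted p = 1.00). In *lin-54(n2990)* embryos it read 10.58, 10.67 and 10.34, against 10.167, 9.9997 and 10.145 in wild-type, a log2 change of 0.42 that was not called.

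In embryos 2 of the 10 genes were called between mutant and wild-type, *mat-2* (1.91-fold higher) and *apc-11* (1.54-fold higher). To be called, a probe set needed an unadjusted limma p-value no higher than 0.01 together with a 1.5-fold change or more. So 2 of the 15 probe sets (13.3%) were called higher and 0 lower, against 3.38% of all probe sets called higher and 1.53% called lower in this comparison. All 15 were called present on all 6 embryo arrays, and among the 9410 probe sets present on all 6 arrays 6.59% were called higher. No member passed an adjusted p of 0.05 (lowest adjusted p = 0.0974 by limma with Benjamini-Hochberg adjustment over all probe sets), which 57 probe sets (0.265%) passed together with the fold threshold. An unadjusted p of at most 0.05 was reached by 5 of the 15 members, by 25.4% of all probe sets and by 3204 of the 9410 present on all 6 arrays.

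The mean was higher in the mutant for 14 of the 15 probe sets (93.3%), against 50.7% of all probe sets and 60.9% of those present on all 6 arrays. The median log2 change was 0.28 over the members, 0.00 over all probe sets and 0.11 over those present on all 6 arrays. For 5 members every mutant array lay above every wild-type array, against 15.2% of all probe sets and 2246 of the 9410 present on all 6 arrays. For none did every mutant array lie below (17.6% of all probe sets and 1432 of the 9410). For the 5 members that lay wholly above, an exact permutation test gave p = 0.1, the smallest that 2 groups of 3 arrays allow.

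**Figure D1:**
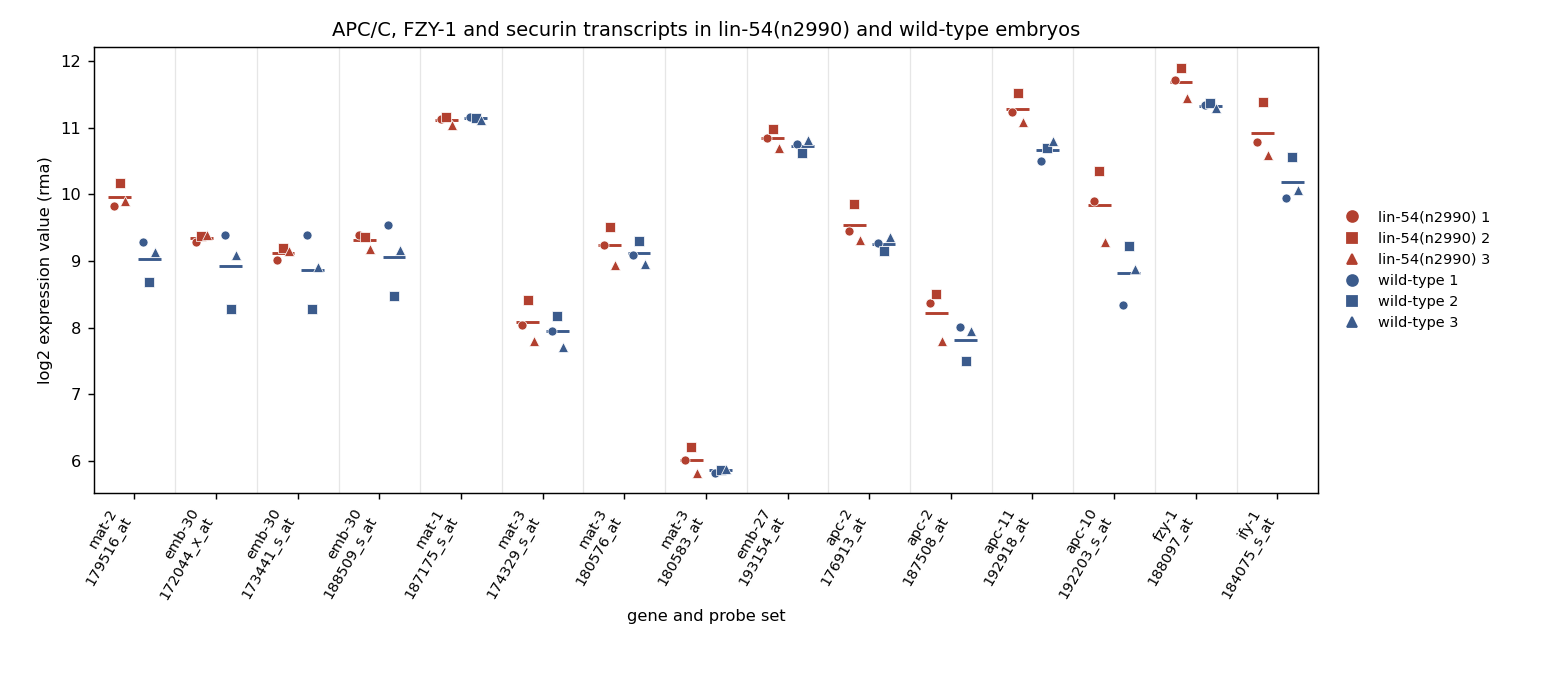
Log2 expression value (rma) of each member probe set on the 3 *lin-54(n2990)* arrays (red, left) and the 3 wild-type arrays (blue, right) of embryos, with the group mean as a line. The mutant and wild-type points do not overlap for *mat-2*, *apc-11*, *apc-10*, *fzy-1* and *ify-1*, and mutant replicate 2 (red square) is the highest of the 6 arrays for 12 of the 15 probe sets.

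The scaffold of the complex was measured by *mat-2* (APC1, its largest subunit) and *emb-30* (APC4). *mat-2* read 9.83, 10.16 and 9.90 in mutant embryos, against 9.28, 8.68 and 9.14 in wild-type. The groups did not overlap. The log2 change was 0.93 (SE 0.18, adjusted p = 0.0974, limma), and it was called without each of the 6 arrays in turn, at 0.75 to 1.06. *emb-30* had 3 probe sets, of which the most changed, 172044_x_at, read 9.28, 9.37 and 9.40 in the mutant and 9.39, 8.28 and 9.09 in wild-type. On all 3 probe sets the wild-type arrays spread widely, with replicate 2 lowest and replicate 1 highest, and the mutant arrays lay close together within the wild-type range or just above it. Mean log2 changes of 0.43, 0.26 and 0.26 resulted (SE 0.27 to 0.28, adjusted p = 0.372 to 0.594), and none was called. Probe sets named _x_at or _s_at may also read other transcripts.

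The arm of the complex is made of subunits with tetratricopeptide repeats, which bind the activators. They are encoded by *mat-1* (CDC27), *emb-27* (CDC16) and *mat-3* (CDC23). *mat-1* read 11.13, 11.16 and 11.04 in the mutant and 11.16, 11.14 and 11.12 in wild-type. It had the smallest standard error of the members (0.07) and was the only probe set with a lower mean in the mutant. The log2 change was −0.03, with a 95% interval of −0.20 to 0.14 that leaves out a 1.5-fold change. *emb-27* read 10.85, 10.98 and 10.69 in the mutant and 10.75, 10.62 and 10.82 in wild-type. Its groups overlapped, and the log2 change of 0.11 had an interval of −0.15 to 0.37. The 3 probe sets of *mat-3* changed by 0.14, 0.12 and 0.15 (SE 0.11 to 0.19, adjusted p = 0.423 to 0.699). On 174329_s_at it read 8.05, 8.42 and 7.80 in the mutant and 7.96, 8.18 and 7.71 in wild-type, so that in either genotype replicate 2 was high and replicate 3 low. The median log2 change of these 5 probe sets was 0.12, beside 0.34 for the 4 of the scaffold.

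The catalytic module holds *apc-2*, the cullin subunit, and *apc-11*, the RING subunit that recruits the ubiquitin-conjugating enzyme, and *apc-10* encodes the subunit that forms the substrate receptor together with the activator. *apc-11* read 11.24, 11.52 and 11.09 in the mutant, against 10.49, 10.69 and 10.79 in wild-type. The groups did not overlap. The log2 change was 0.62 (SE 0.14, adjusted p = 0.108, limma). It lay close to the fold threshold, and it was lost in 4 of 6 fits that each dropped an array (0.50 to 0.72), namely those without mutant replicate 1 or 2, and those without wild-type replicate 1 or 2.

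*apc-10* had the largest change of the members. It read 9.90, 10.34 and 9.29 in the mutant, against 8.34, 9.23 and 8.88 in wild-type. The lowest mutant array lay just above the highest wild-type array, and both groups spread over about 1 on the log2 scale. The log2 change was 1.03 (SE 0.33), a fold change of 2.04 that was not called at an unadjusted limma p-value of 0.0209 (adjusted p = 0.148). Without mutant replicate 3 it was called. The 2 probe sets of *apc-2* differed by 0.28 and 0.40 on the log2 scale (SE 0.16 and 0.23, adjusted p = 0.308 and adjusted p = 0.311). On 176913_at it read 9.45, 9.86 and 9.31 in the mutant and 9.27, 9.15 and 9.36 in wild-type. The groups overlapped through mutant replicate 3, the lowest mutant array for both probe sets.

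*fzy-1*, the activator, read 11.71, 11.90 and 11.45 in mutant embryos and 11.33, 11.37 and 11.29 in wild-type. The groups did not overlap, and the wild-type arrays were within 0.08 of each other. The log2 change of 0.36 (SE 0.12, adjusted p = 0.165, limma) was under the fold threshold. *ify-1*, the securin that keeps separase inactive, read 10.78, 11.39 and 10.58 in the mutant and 9.94, 10.56 and 10.06 in wild-type. The lowest mutant array was only just above the highest wild-type array, and replicate 2 was the highest array in each genotype. The log2 change of 0.73 (SE 0.26, fold change 1.66) was not called (unadjusted limma p-value of 0.0301, adjusted p = 0.166). A fit with replicate as a block called it (unadjusted limma p-value of 0.00153, adjusted p = 0.0574), which made 3 member genes called higher and 0 lower, against 4.27% of all probe sets higher and 3.62% lower in that fit.

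**Figure D2:**
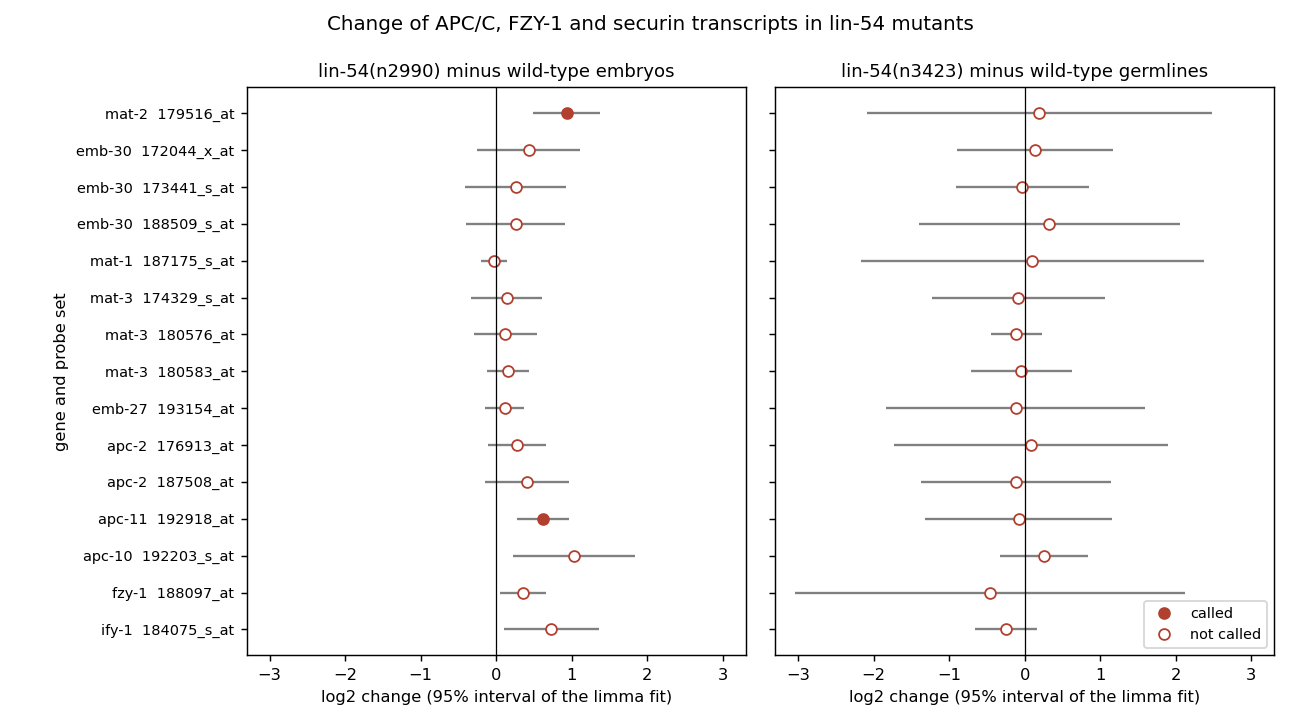
Log2 change of each member probe set, mutant minus wild-type, in embryos (left panel) and germlines (right panel), with the 95% interval of the limma fit and a filled point where the probe set was called. The embryo points lie between −0.03 and 1.03 with *mat-2* and *apc-11* filled. The germline points lie between −0.45 and 0.33 with intervals that reach from −3.03 to 2.47 and none filled.

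The arrays of mutant embryos were not alike in these genes. Mutant replicate 2 held the highest of the 6 values for 12 of the 15 probe sets, and mutant replicate 3 the lowest of the 3 mutant values for 12. As the median over the members of the value less the wild-type mean, mutant replicates 1, 2 and 3 were at 0.34, 0.47 and 0.12. All 3 were above the wild-type replicates, which were at 0.01, 0.00 and 0.06. With both embryo arrays numbered 2 left out, the median log2 change of the members was 0.09, 11 of the 15 probe sets were higher, and limma called *mat-2* (0.65, adjusted p = 0.0583) and *ify-1* (0.68, adjusted p = 0.0633), while *apc-11* (0.52, adjusted p = 0.102) was not called. That fit called 3.73% of all probe sets higher and 3.18% lower. Without mutant replicate 2 alone, *mat-2* was the member called and the median was 0.23.

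Markers of cell types ran both ways between mutant and wild-type embryos. The summed level of 6 germ cell markers (log2 of the summed linear values) was 12.89, 13.29 and 12.38 in mutant embryos, against 11.91, 12.32 and 11.99 in wild-type, and that of 7 oocyte and eggshell markers was 14.22, 14.80 and 13.20, against 12.48, 13.49 and 12.72. For both lists replicate 2 was the highest in each genotype and, in the mutant, replicate 3 the lowest. Among the mutant arrays, replicate 2 was likewise the highest for 13 member probe sets and replicate 3 the lowest for 12. Wild-type replicate 2 was the highest of its genotype for 5 member probe sets and the lowest for 7. All 6 germ cell markers and 6 of the 7 oocyte markers were present on the 3 arrays of each genotype. The sum of 5 markers of early zygotic expression was 11.64, 11.98 and 11.45 in the mutant, against 10.80, 11.10 and 10.95 in wild-type. Called higher in these lists were *glh-1*, *cpg-2* and *pes-10*. The sums for body wall muscle (10.27 to 12.12, against 12.57 to 12.97), epidermis (12.82 to 13.64, against 13.68 to 14.02) and neurons (12.62 to 12.81, against 12.91 to 13.06) were lower in the mutant. Sums of linear values follow the brightest probe sets, and no gene of the muscle, epidermis and neuron lists was called. In them *hlh-1* (0.11), *elt-1* (0.22) and *unc-119* (0.09) had higher means in the mutant. The sum for intestine (10.04 to 10.95, against 11.55 to 11.91) was lower through *asp-1* (a log2 change of −2.40, called), with a median of −0.01 over the list and *vit-2* and *vit-6* absent on all 6 arrays. Of 5 sperm markers 4 were absent from wild-type embryos, and of 4 sheath markers 3. The part of these cell types and stages in the member values was not tested, and a change in the number of cells of a type cannot be told apart from a change in RNA per cell.

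Of 24 other genes listed for the metaphase to anaphase pathway 22 were found, with 30 probe sets. Of these 28 (93.3%) had a higher mean in mutant embryos, against 50.7% of all probe sets and 60.9% of those present on all 6 arrays, with a median log2 change of 0.31. For 13 of the 30 every mutant array lay above every wild-type array, against 15.2% of all probe sets and 2246 of the 9410 present on all 6 arrays. Called higher were 2 genes (6.67% of the probe sets, against 3.38% of all and 6.59% of those present on all 6 arrays), and 0 were called lower. Both encode further APC/C subunits. *such-1*, which encodes an APC5 subunit, read 7.94, 8.45 and 7.28 in the mutant and 6.53, 6.97 and 6.53 in wild-type, where it was absent on all 3 arrays, so that it was at least 2.32-fold higher in the mutant (limma, adjusted p = 0.117). K10D2.4 (*emb-1*, a small subunit of the complex) read 11.85, 12.07 and 11.44 in the mutant and 10.69, 11.11 and 11.05 in wild-type, a log2 change of 0.84 (SE 0.19, adjusted p = 0.111, limma). Neither gene overlapped between the groups. The count ranged from 0 to 7 with an array left out: 0 without mutant replicate 1, wild-type replicate 1 or wild-type replicate 3, 1 without mutant or wild-type replicate 2 and 7 without mutant replicate 3. With the replicate block it was 5, with *sep-1* (separase), *czw-1* (a checkpoint gene) and *cyb-2.1* (a B-type cyclin) added.

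*gfi-3*, which like *such-1* encodes an APC5 subunit, read 9.70, 9.84 and 9.54 in mutant embryos and 9.72, 9.77 and 9.55 in wild-type, a log2 change of 0.01 with an interval of −0.26 to 0.27. *fzr-1*, the other activator (the worm CDH1), read 9.58, 9.46 and 9.33 against 9.67, 9.72 and 9.32, a change of −0.11 with an interval of −0.44 to 0.22. For both, the interval of the change left out the fold threshold. By role, all 10 probe sets of the spindle checkpoint (7 genes) were higher, with a median of 0.55. So were all 10 of the cyclins (5 genes), with a median of 0.28, and 5 of the 6 of separase and cohesin, with a median of 0.26. None of these was called. Probe sets of the same gene are not separate results, and those of *cyb-2.1* and *cyb-2.2* are named _x_at.

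**Figure D3:**
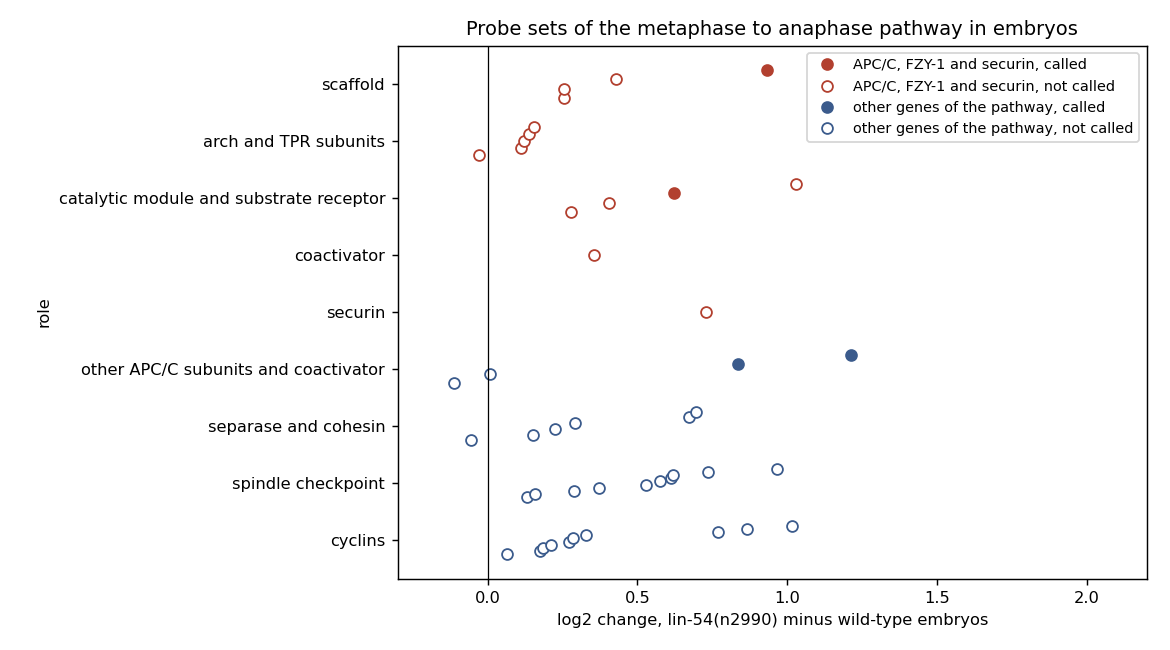
Log2 change of each probe set in *lin-54(n2990)* minus wild-type embryos, by role, for the members (red) and the other genes of the pathway (blue), with filled points where called. The points lie right of 0 except *mat-1*, *fzr-1* and *scc-3*, and the 4 filled points are *mat-2*, *apc-11*, *such-1* and K10D2.4.

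The profile of the members over the 6 embryo arrays was taken as the median over the 10 genes of each gene's value less its own mean. It was 0.20, 0.43 and −0.05 in mutant replicates 1, 2 and 3 and −0.13, −0.15 and −0.19 in the wild-type replicates. *fzy-1* lay nearest to it, with a root mean square distance of 0.0284, and *apc-10* farthest, at 0.464. Of 6702 other genes present on all 6 arrays, the nearest were W02B8.2 (0.0300), Y17G9B.1 (0.0340), F52C9.7 (0.0379), *cin-4* (0.0409) and *dpf-3* (0.0426), beside a median distance of 0.254. This likeness is a description over 6 arrays of the same samples.

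In germlines none of the 15 probe sets was called between *lin-54(n3423)* and wild-type, where 0.0696% of all probe sets were called higher and 0.371% lower. The log2 changes ran from −0.45 (*fzy-1*) to 0.33 (*emb-30* on 188509_s_at), with a median of −0.05 beside 0.02 over all probe sets. Of the 15, 6 were higher (40%, against 56.6% of all probe sets) and 9 lower. The lower ones include a probe set of *mat-3* and a probe set of *apc-2* that were absent on all 6 arrays. Only 9 members were present on all 6 arrays. Among these, *mat-1* (0.10), a probe set of *apc-2* (0.08) and *apc-10* (0.26) were higher and the others lower. Of all probe sets present on all 6 arrays 49% were higher. No member had groups that did not overlap (4.02% of all probe sets lay wholly above and 3.15% wholly below). None reached an unadjusted limma p of 0.05, which 2.50% of all probe sets did. The standard errors ran from 0.14 (*mat-3* on 180576_at, absent on all 6 arrays) to 1.04 (*fzy-1*). For 9 of the 15 a 2-fold change in either direction lay within the 95% interval. These intervals come from the fit without a block. With replicate as a block no member was called, and the lowest unadjusted limma p-value was 0.0203 for *fzy-1* (adjusted p = 0.559).

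Most of the spread lay between the arrays numbered 1 and the others. *mat-2* read 6.65, 8.72 and 9.13 in mutant germlines and 6.42, 8.73 and 8.78 in wild-type. *mat-1* read 7.999, 10.199 and 10.246 in the mutant and 7.81, 9.92 and 10.41 in wild-type. *fzy-1* read 8.05, 10.82 and 10.67 in the mutant and 8.61, 10.99 and 11.31 in wild-type. In each of these genes the arrays numbered 1 of both genotypes were at −2.70 to −2.22 relative to the mean of the other 2 arrays of their genotype. *emb-27* and *apc-2* (176913_at) were at −1.97 to −1.46 in the same way. *apc-11* ran the other way, with 11.38, 10.31 and 9.93 in the mutant and 11.41, 10.18 and 10.27 in wild-type. In both genotypes, 6 of the 15 members (40.0%) were lower by at least 1 on the array numbered 1 and 1 (6.67%) higher by as much, against 7.67% and 2.34% of all probe sets, and 24.6% and 6.96% of the 6449 present on the 4 arrays numbered 2 and 3. K10D2.4 resembled *apc-11*, with 11.13, 9.37 and 9.59 in the mutant and 11.93, 9.46 and 9.54 in wild-type. The oocyte and eggshell markers were also lower on these arrays, with sums of 12.91 and 13.37 on the mutant and wild-type arrays numbered 1, against 15.07 to 15.57 on the other 4. The germ cell markers also summed lower there, to 13.04 in the mutant and 12.88 in wild-type, against 13.61 to 13.82 on the other 4. The sperm sums were 11.02, 11.09 and 9.41 in the mutant and 9.37, 8.82 and 9.96 in wild-type. Those of intestine were 10.24, 13.76 and 9.93 in the mutant and 10.71, 11.58 and 13.19 in wild-type. None of the 5 early zygotic markers was called present in either genotype. The sum of the 4 sheath markers was lower in the mutant (8.58 to 8.97, against 10.02 to 10.36) through *inx-8* (a log2 change of −2.67, called), with a median of 0.03 over the list and *lim-7* and *ceh-18* absent on all 6 arrays. The part of these cells in the member values was not tested.

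Some members did not follow this pattern, *ify-1* and *apc-10* among them. *mat-3* on 180576_at was at 0.06 in the mutant and −0.32 in wild-type on the array numbered 1, relative to the other 2. *emb-30* on 172044_x_at and 173441_s_at was at −1.26 and −1.04 in the mutant, but at −0.28 and −0.18 in wild-type. *ify-1* read 10.74, 10.99 and 10.73 in mutant germlines and 10.78, 11.14 and 11.27 in wild-type. The groups overlapped only through wild-type replicate 1, and the log2 change of −0.25 had an interval of −0.65 to 0.16 (limma, adjusted p = 1.00). *apc-10* read 11.53, 10.72 and 10.76 in the mutant and 10.76, 10.75 and 10.71 in wild-type, so that 1 mutant array alone stood above the others. With both arrays numbered 1 left out, the standard errors of the members fell to 0.08 to 0.33. The log2 changes then ran from −0.40 to 0.67, 7 higher and 8 lower, and none was called. That fit called 0.808% of all probe sets higher and 1.18% lower. The lowest unadjusted limma p-value in this fit was 0.0354 for *emb-27* (−0.29, adjusted p = 0.417), followed by *fzy-1* (−0.40), *ify-1* (−0.35) and *apc-2* on 187508_at (−0.30, absent on all arrays), all with adjusted p of 0.437 to 0.442.

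**Figure D4:**
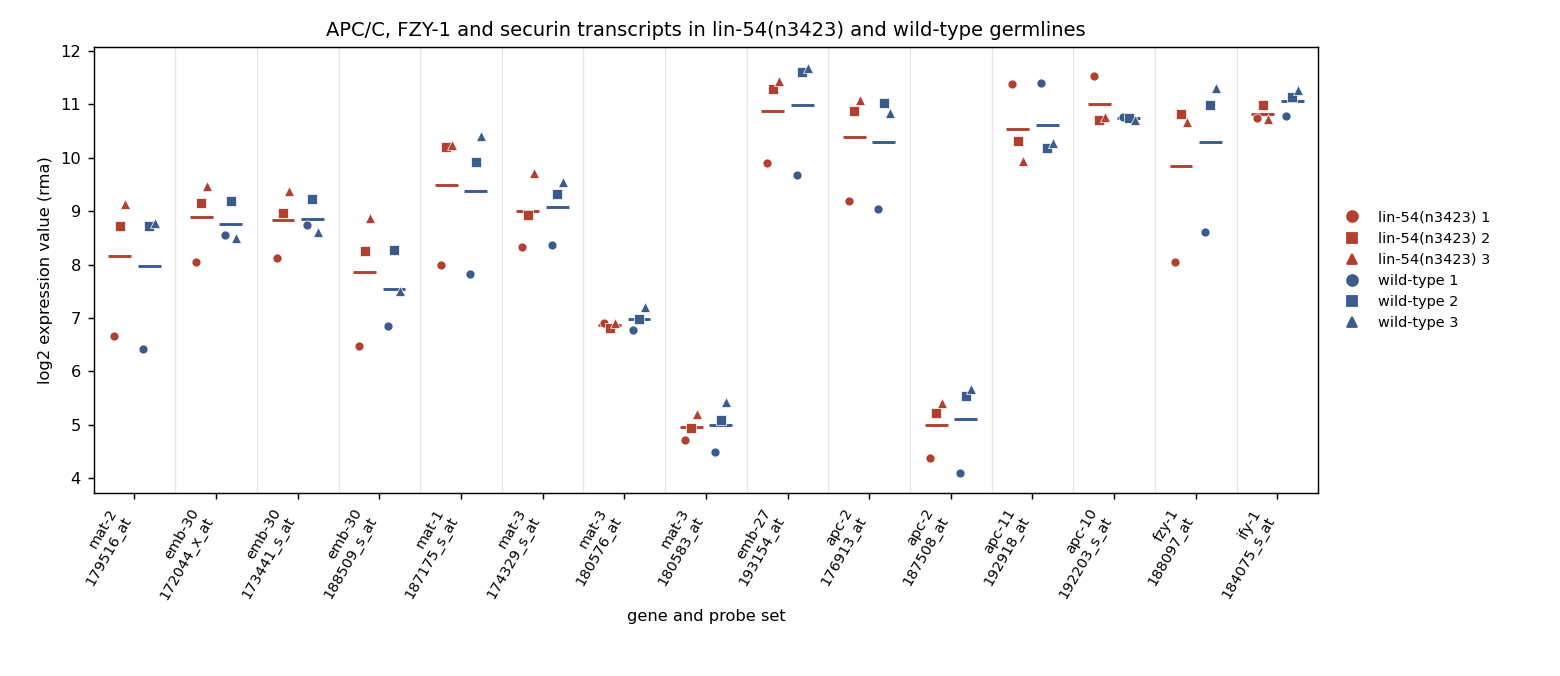
Log2 expression value (rma) of each member probe set on the 3 *lin-54(n3423)* arrays (red, left) and the 3 wild-type arrays (blue, right) of germlines, with the group mean as a line. The circles, arrays numbered 1, lie below the squares and triangles in both genotypes for *mat-2*, *mat-1*, *emb-27* and *fzy-1*, and above them for *apc-11*.

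Detection in germlines followed the same arrays. Of the 15 probe sets 10, 13 and 13 were present in mutant replicates 1, 2 and 3, and 10, 13 and 13 in the wild-type replicates. Over all probe sets the present calls were 5954, 8001 and 7174 in the mutant and 6347, 7680 and 8209 in wild-type. The arrays numbered 1 thus had the fewest over all probe sets as well. *mat-3* on 180576_at (6.81 to 6.91 in the mutant, 6.77 to 7.21 in wild-type) and *apc-2* on 187508_at (4.37 to 5.40 and 4.09 to 5.67) were absent on all 6, although other probe sets of both genes were present on all 6. No order of these 2 probe sets between genotypes can be read from values at background. Present on all 6 were 9 probe sets, which cover *emb-30*, *mat-1*, *mat-3*, *emb-27*, *apc-2*, *apc-11*, *apc-10*, *fzy-1* and *ify-1*. *mat-2* was absent only in wild-type replicate 1.

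None of the 22 pathway genes was called in germlines, where 0.0696% of all probe sets were called higher and 0.371% lower. Of the 30 probe sets 12 (40%, against 56.6% of all probe sets) were higher, with a median of −0.04 and changes from −0.72 to 0.89. Present on all 6 germline arrays were 19 of the 30, and *fzr-1* was absent on all 6. The lowest p was that of *san-1*, a spindle checkpoint gene, which read 10.11, 11.02 and 11.16 in the mutant and 8.77, 10.58 and 10.27 in wild-type. Its groups overlapped, and the log2 change of 0.89 (SE 0.55) had an unadjusted limma p-value of 0.157 (adjusted p = 1.00). A fit with replicate as a block called it (unadjusted limma p-value of 0.00774, adjusted p = 0.466), which made 1 pathway gene called higher and no member called, against 0.297% of all probe sets higher and 0.984% lower in that fit. In embryos *san-1* read 11.57, 11.47 and 11.01 in the mutant and 10.63, 9.80 and 10.72 in wild-type. Those groups did not overlap, with a log2 change of 0.97 that was not called (limma, adjusted p = 0.135).

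The difference between the change in embryos and the change in germlines was tested in a fit of all 12 arrays. No member passed an adjusted p of 0.05, which 29 of 21541 probe sets (0.135%) passed. The lowest p was that of *ify-1*, at 0.73 in embryos and −0.25 in germlines, a difference of 0.97 (SE 0.33, adjusted p = 0.320, limma). An exact permutation over the 400 regroupings of genotypes within tissues gave p = 0.0150, unadjusted and with 0.005 as the smallest it allows. With replicate as a block within each tissue, *ify-1* passed (limma, adjusted p = 0.0467), and the share of all probe sets passing in that fit was not counted. For the other members the difference ran from −0.13 (*mat-1*) to 0.81 (*fzy-1*), with standard errors up to 1.12. The tissue cannot be told apart here from the allele, the temperature, the amplification and the labelling kit.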

How the data were processed

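The authors hybridized each sample to an Affymetrix *C. elegans* Genome array and deposited log2 values made with rma (affy package, versions not given in the sources used here; background correction, quantile normalization, probe set summary; each tissue on its own), detection calls, and genes by WormBase WS190. Their own limma p-values and log2 fold changes are also in the tables and were not used. For germlines, 8 deposited gene symbols had become dates, so the symbols of the embryo table served both. No signal below the probe set was analysed.

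Fits used R 4.3.3 and limma 3.58.1 (lmFit, eBayes), mutant minus wild-type per tissue, after tests on simulated data. Figures used Python 3.11.15 and matplotlib 3.10.9. A gene was called when at least 1 of its probe sets was. Arrays of the same number had correlations of 0.246, 0.362 and 0.276 (embryos) and 0.834, 0.363 and 0.392 (germlines) after subtraction of genotype means. The labels do not say what a number shares, and arrays of unlike number were not compared in this way. The fits reported have no block, so that variation shared by arrays of a number stays in their standard errors. A fit with the replicate number as a block was the alternative. The number of arrays limits the precision.

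Named are all members, the pathway genes called in a tissue (or, with none, that of lowest p), *lin-54* and the 5 nearest profiles. *gfi-3*, *fzr-1*, the genes added by the block, *san-1* in embryos, *scc-3* and K10D2.4 in germlines were picked with their values in view. The members and lists were chosen with earlier results of these data known. Alternatives were other thresholds and normalizations, filters, probe set averages, the block, array weights, array 1 as a batch and arrays left out. *emb-1* and *cya-1* were found through locus tags of WBcel235 RefSeq genes; *coh-4* and *smc-1* were not found.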

Additional observations from a re-analysis of the deposited data

How the results depend on the processing

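In embryos the 2 member genes called higher became 0 at an adjusted p of 0.05 and 0 at a fold change of 2, 1 with quantile normalization, and 1 to 3 with an array left out. Their median of 0.28 was 0.22 to 0.50 with an array left out and 0.092 without both arrays numbered 2, a choice made after seeing the data. Of all probe sets 3.38% were called higher in the fit as reported, and 3.21% with quantile normalization, 4.27% with the replicate block, 4.53% with arrays centred on their median, 7.68% with array weights, and 1.70% to 6.77% with an array left out (6.77% without mutant replicate 3). The 2 pathway genes called higher became 0 at an adjusted p of 0.05, 1 at a fold change of 2, 5 with the replicate block, 5 with arrays centred on their median, 9 with array weights and 0 to 7 with an array left out. In germlines the 0 pathway genes called higher became 1 with the replicate block, 1 with the arrays numbered 1 as a batch, 0 to 1 with an array left out and 3 without both arrays numbered 1 (*san-1*, *rod-1* and *smc-3*), also chosen after seeing the data. Without mutant replicate 1 the germline gene was *smc-3*. Of all germline probe sets 0.0696% were called higher and 0.371% lower in the fit as reported, and 0.297% and 0.984% with the block. The shares were 0.353% and 1.23% with the arrays numbered 1 as a batch, and 0.808% and 1.18% without both. With an array left out they were 0.0557% to 0.265% and 0.209% to 0.478%. Member probe sets that differed between tissues, 0 as reported, became 1 with the block and 4 with array weights. Those 4 were of *ify-1*, *apc-10*, *apc-11* and *apc-2* (187508_at), the last of them absent on all germline arrays. The share of all probe sets that passed in these fits was not counted. With array weights 3 member genes were called higher in embryos (*mat-2*, *apc-10* and *ify-1*), without *apc-11*. Apart from *ify-1* in embryos, the block changed no other member's call. The germline median was −0.39 to 0.32 with an array left out. The cause of these shifts was not tested.

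Signs of small, uncalled changes turned. In embryos, without both arrays numbered 2, *emb-30* was at −0.071 (173441_s_at) and −0.063 (188509_s_at) and *emb-27* at −0.017, and *mat-1* was at 0.069 after median centring. With an array left out, *emb-30* ran from −0.033 to 0.52 (173441_s_at) and from −0.038 to 0.50 (188509_s_at), *mat-1* from −0.056 to 0.0067, and *mat-3* from −0.024 to 0.28 (174329_s_at) and from −0.018 to 0.26 (180576_at). In germlines, *emb-30* (173441_s_at) was at 5.96e-05 with array weights and 0.26 without both arrays numbered 1, and *apc-2* (176913_at) at −0.058 with array weights. With an array left out, germline changes ran from −0.59 to 0.95 for *mat-2*, from −0.15 to 0.56 (172044_x_at), −0.31 to 0.32 (173441_s_at) and −0.18 to 1.02 (188509_s_at) for *emb-30*, from −0.69 to 0.84 for *mat-1*, from −0.45 to 0.25 (174329_s_at), −0.22 to 0.0017 (180576_at) and −0.30 to 0.16 (180583_at) for *mat-3*, from −0.78 to 0.36 for *emb-27*, from −0.55 to 0.68 (176913_at) and −0.61 to 0.20 (187508_at) for *apc-2*, from −0.50 to 0.31 for *apc-11*, from −0.0029 to 0.40 for *apc-10* and from −1.30 to 0.45 for *fzy-1*. *ify-1* kept its sign in both tissues under every alternative run.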
